A study of Homo sapiens with 19 samples.

Results

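Nonmuscle myosins, tropomyosins and actinins are described here through 10 genes chosen by name: the myosin heavy chains MYH9 and MYH10, the myosin light chain MYL6, the unconventional myosin MYO18A, the tropomyosins TPM1, TPM2, TPM3 and TPM4, and the actinins ACTN1 and ACTN4. These are 10 of 22760 genes with splice junction reads, and they hold 343 of 361515 annotated introns. RNA depleted of ribosomal RNA was sequenced from 19 human cell line libraries, and the reads that crossed each splice junction were counted. A375 melanoma cells were sequenced as total RNA and as nuclear and cytoplasmic fractions, with 1 library for each. There was also 1 library of wild-type HEK293 cells, which derive from embryonic kidney, and 1 of wild-type HUES66 human embryonic stem cells. The other 14 libraries came from HUES66 cells that all received doxycycline at 1 ug/ml: 3 controls with a WT genotype label, 3 with total knockdown (KD) of the splicing regulator RBFOX2, 4 with N-short KD and 4 with N-long KD, which target separate RBFOX2 isoforms. These fall into 4 library sets. The set of 24 hr replicate 1 holds total, N-short and N-long KD with no titled control, and that of 24 hr replicate 2 holds a control, N-short and N-long KD. The 48 hr and 96 hr sets hold 1 library of each group. HUES66 cells were plated with a ROCK inhibitor at passaging, per the labels' protocols, and ROCK is a kinase that activates nonmuscle myosin.

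Nonmuscle myosin II is a motor built from a pair of heavy chains (MYH9 gives type A, MYH10 type B) with light chains such as MYL6, and it pulls on actin filaments in stress fibers, the cell cortex and the cleavage furrow. Tropomyosins are coiled coils that lie along the actin filament and set which myosins and other proteins bind it, and each tropomyosin gene makes many forms through alternative first, internal and last exons. Actinins crosslink actin filaments, and the EF-hands at their carboxyl end make the nonmuscle forms calcium-sensitive. RBFOX2 is an RNA-binding protein that recognises GCATG (as DNA letters) in introns near alternative exons and can raise or lower exon use depending on where it binds. MYO18A belongs to a myosin class with little or no motor activity of its own.

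The exons on which the results turn are shown first, as GENCODE 29 transcripts on GRCh38 (hg38) give them, 5′ to 3′ on the coding strand. The TPM1 pair (chr15:63061198-63061273 and chr15:63061713-63061788, plus strand) are mutually exclusive alternatives for exon 6 and code for a stretch in the middle of the coiled coil. They have equal length and differ at 33 of 76 positions, set in capitals.
TPM1 upstream exon 6: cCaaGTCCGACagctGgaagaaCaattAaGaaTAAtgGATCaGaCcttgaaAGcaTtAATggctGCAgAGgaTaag
TPM1 downstream exon 6: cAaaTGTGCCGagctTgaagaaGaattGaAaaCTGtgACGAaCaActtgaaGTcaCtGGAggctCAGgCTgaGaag
The TPM2 pair (chr9:35685064-35685139 and chr9:35684732-35684807, minus strand) holds the same position in its gene and differs at 36 of 76 positions, in capitals.
TPM2 upstream exon 6: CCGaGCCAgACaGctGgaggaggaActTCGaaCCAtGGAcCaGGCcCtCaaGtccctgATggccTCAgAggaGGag
TPM2 downstream exon 6: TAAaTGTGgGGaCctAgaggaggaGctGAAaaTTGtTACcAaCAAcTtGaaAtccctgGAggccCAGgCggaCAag
The ACTN4 exon 8 pair (chr19:38710257-38710342 and chr19:38711276-38711361, plus strand) has a percent identity of 75.6, with 21 of 86 positions in capitals where the exons differ.
ACTN4 upstream exon 8: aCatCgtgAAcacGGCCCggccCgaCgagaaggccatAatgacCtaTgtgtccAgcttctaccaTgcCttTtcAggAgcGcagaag
ACTN4 downstream exon 8: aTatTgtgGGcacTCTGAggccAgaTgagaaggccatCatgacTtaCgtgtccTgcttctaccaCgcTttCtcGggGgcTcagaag
The ACTN1 pair (chr14:68878989-68879069 and chr14:68878458-68878523, minus strand) codes for part of an EF-hand. The 81 nt exon is known from nonmuscle ACTN1 and the 66 nt exon from the smooth muscle form.
ACTN1 81 nt exon: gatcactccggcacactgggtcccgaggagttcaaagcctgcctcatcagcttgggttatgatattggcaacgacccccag
ACTN1 66 nt exon: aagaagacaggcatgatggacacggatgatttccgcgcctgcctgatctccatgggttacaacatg
MYH10 has a 30 nt cassette exon (chr17:8576643-8576672, minus strand), known as an insert near the ATP-binding pocket in neural forms. The capitals are the 3 bases that a 27 nt form lacks.
MYH10 30 nt exon: CAGgaatcgcctaaaccagtgaaacaccag
MYO18A (chr17:29085604-29085648, minus strand) and MYL6 (chr12:56160626-56160670, plus strand) each have a 45 nt cassette exon. In MYL6 26 of the 45 bases are coding, so that the exon ends the protein within it.
MYO18A 45 nt exon: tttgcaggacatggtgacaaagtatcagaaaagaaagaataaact
MYL6 45 nt exon: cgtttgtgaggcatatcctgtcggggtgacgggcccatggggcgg
TPM1 also has a coding exon of 79 nt (chr15:63064064-63064142, plus strand) near its 3′ end, where the choice of the last exon is made.
TPM1 79 nt exon: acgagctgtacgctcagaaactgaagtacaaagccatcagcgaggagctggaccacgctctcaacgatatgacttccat

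The 14 doxycycline-treated libraries held 9622841 to 14625040 junction reads each, and all 19 held 6499183 to 27937149. RBFOX2 gene reads, which do not separate its isoforms, were 126 to 133 CPM (reads scaled to library size) in the controls, 51.1 to 83.3 after total KD, 76.7 to 92.7 after N-long KD and 113 to 128 after N-short KD. The stem cell marker list summed to 3092 to 4789 CPM in the 14 libraries, against 6.0 in A375 total RNA and 19.5 in HEK293. The 48 hr set stood apart in several exons below, and its summed muscle marker level was 172 to 189 CPM, above the 106 to 121 of the 96 hr set and the 81 to 118 of the 24 hr sets. Most of that sum was TAGLN, at 108 to 123 CPM in the 48 hr set and 73.4 to 81.6 in the 96 hr set. Of the 9 markers 5 were called lower at 96 hr than at 48 hr and 0 higher, near the 59.6% of all genes called. The part of these markers in the results was not tested.

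An exon's share is the percent of its reads among its reads and those of the alternative (skipping, or the other exon of a pair), and changes were tested as log2 odds ratios, with a mean within-set difference in percentage points and its SD over the sets. Of 39 annotated cassette exons in the 10 genes, 15 passed the filter (5 had too few reads and 19 a pooled share outside 2% to 98%). Of 11 mutually exclusive pairs 8 passed, and of 44 alternative first or last exons 10 did. After total KD, 8 of 15 cassette exons were called at an adjusted p under 0.05, 2 higher and 6 lower, where 1.39% of all cassette exons were called. After N-long KD 5 were called (0.612% of all), and between N-long and N-short KD also 5 (0.428% of all). After N-short KD 0 were called by edgeR and by limma (0.0153% of all, and 1 of the 15 at an unadjusted p under 0.05). The exons of TPM1, MYH10, ACTN1 and MYL6 overlap or share introns, so these counts and the medians below are not of independent events. In MYL6 the 4 tested cassettes (36, 108, 125 and 144 nt) are forms of 1 stretch with the same outer ends. The median absolute log2 odds ratio of the 15 was 1.18 after total KD, against 0.448 over all exons tested, and 0.638 against 0.375 after N-long KD. After N-short KD it was 0.245, below the 0.373 of all exons.

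Pairs gave 3 calls of 8 after total KD (0.717% of all pairs), 1 after N-long KD (0.13% of all), 1 between N-long and N-short KD (0.13% of all) and 0 after N-short KD (0% of all, and 1 of 8 at an unadjusted p under 0.05). Alternative ends gave 1 call of 10 after total KD (0.0987% of all ends). They gave 0 after N-short KD (0.0592%), N-long KD (0.178%) and between these (0.0592%), with 0, 1 and 2 at an unadjusted p under 0.05 and 0 by limma. Leaving out the 48 hr set, an alternative chosen after the data were seen, left 4 cassette exons, 3 pairs and 0 ends called after total KD. It left 1 cassette exon and 0 pairs after N-long KD, and 0 between N-long and N-short KD. With limma on log ratios in place of edgeR, 4 cassette exons were called after total KD and 0 after N-long KD. In both cases the 4 were the exon 6 alternatives of TPM1 and the 27 and 30 nt forms of the MYH10 exon. The 27 and 30 nt forms have an intron in common whose reads enter both, so their calls are not separate.

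TPM1 used its upstream exon 6 more after total and N-long KD. The share of the upstream exon in the controls was 81.4% at 24 hr, 62.3% at 48 hr and 83.6% at 96 hr. After total KD it was 93.5%, 83.3% and 90.8% at the same times, after N-long KD 88.3% and 86.8% (both 24 hr), 77.4% and 89.1%, and after N-short KD 85.1% and 85.1%, 64.6% and 87.2%. Total KD lay above the control in the 2 sets that held both, and N-long KD in all 3 sets with a control. The control and N-short KD libraries of 48 hr were the lowest of all. The total KD difference was 14.1 ± 9.78 points (SD, n = 2 sets), with a log2 odds ratio of 1.46 (SE 0.13, adjusted p = 7.49e-09). It was 1.26 without the 48 hr set (adjusted p = 0.000226).

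For N-long KD the TPM1 exon 6 difference was 8.66 ± 5.58 points (SD, n = 3 sets) and the log2 odds ratio 0.82 (SE 0.11, adjusted p = 0.000106). That call was lost without the 48 hr control (adjusted p = 0.068) and without the 48 hr set (0.62, adjusted p = 0.252). N-long KD exceeded N-short KD by 4.90 ± 5.34 points (SD, n = 4 sets; log2 odds ratio 0.57, adjusted p = 0.0135), a difference that was not called without the 48 hr set (0.31, adjusted p = 1.0). This call was also lost without any 1 of 4 libraries (N-short KD of 24 hr replicate 1, N-short or N-long KD of 48 hr, or N-long KD of 96 hr). N-short KD exceeded the controls by 3.19 ± 0.81 points (n = 3 sets) and was not called (0.25, adjusted p = 1.0). Reads behind these shares were 484 to 923 per library, and introns that joined both exons made up 1.03% to 4.00% of them. The intron from exon 5 into the downstream exon 6 also enters the TPM1 exon 4 and 5 pair as annotated, whose log2 odds ratio was 1.24 after total KD (adjusted p = 1.63e-05). The calls of the exon 6 alternatives as cassettes also share introns with the exon 6 pair.

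**Figure D1:**
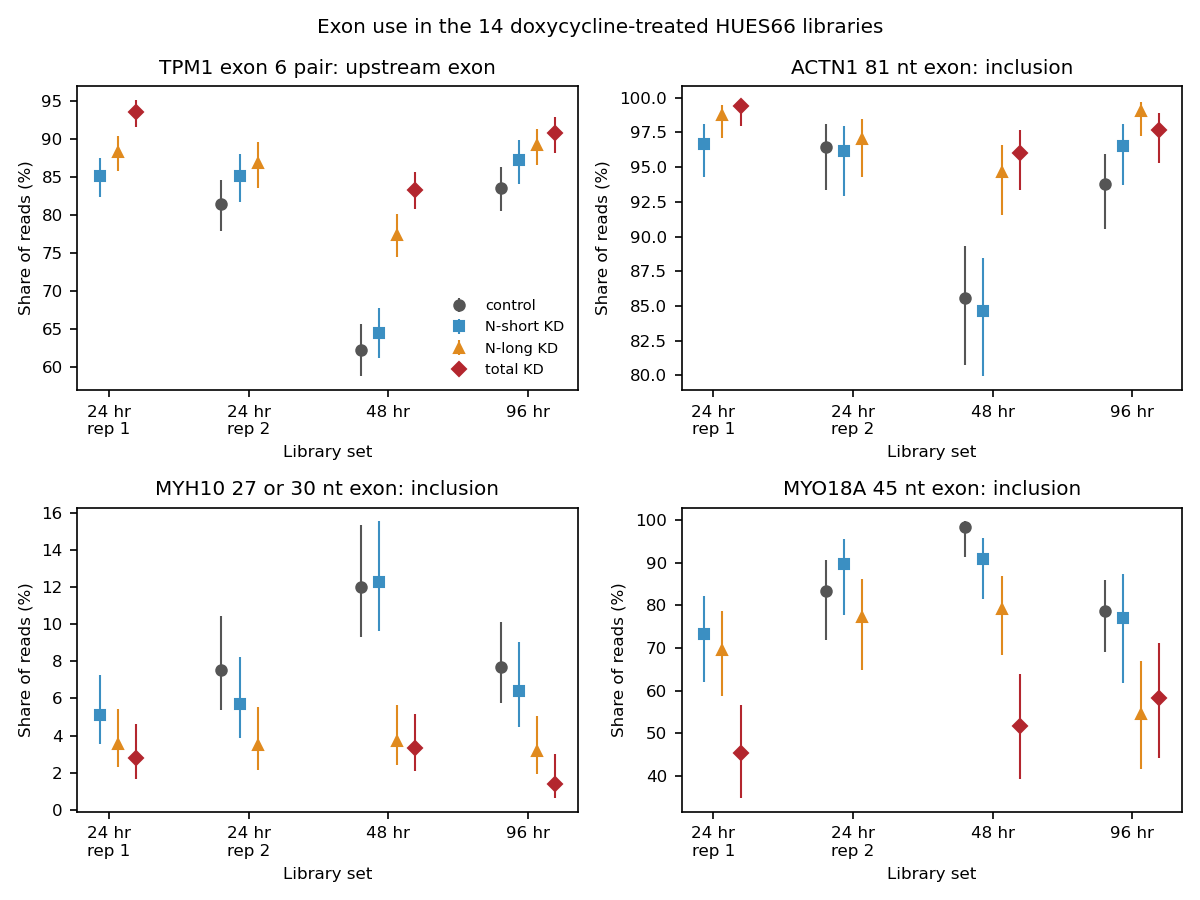
Share of reads (%, y axis) of 4 exons in each doxycycline-treated HUES66 library, by library set (x axis). Points are single libraries and bars 95% Wilson intervals. For TPM1 exon 6 the 48 hr control (62.3%) and N-short KD (64.6%) libraries lie below all others, and total KD (red) is the highest of its set in each of 3 sets.

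At the 3′ end of TPM1, total KD lowered the share of the 79 nt exon against the intron that skips it to a nearer last exon. Reads to the main last exon, farther downstream, are not in this share, so it is not inclusion over all TPM1 reads. The share of the 79 nt exon was 79.7%, 82.1% and 81.1% in the controls at 24, 48 and 96 hr, and 78.1%, 59.4% and 53.5% after total KD. The 24 hr total KD library thus lay near the controls, and the later libraries lay below every other library. N-short KD gave 76.9% and 82.2% at 24 hr, 85.6% at 48 hr and 75.9% at 96 hr, and N-long KD 72.1%, 77.6%, 73.9% and 69.4%. The total KD difference was -25.1 ± 3.54 points (SD, n = 2 sets; log2 odds ratio -1.41, SE 0.29, adjusted p = 0.00162), from 45 to 180 reads per library. Without the 48 hr set it was -1.18 (adjusted p = 0.18), and it was also lost without the 48 hr total KD or the 96 hr control library. The skipping intron of this exon leads to a nearer last exon. That exon's share was 4.90%, 4.38% and 5.13% in the controls and 6.38%, 12.3% and 13.3% after total KD (1.30, adjusted p = 0.000758; 1.04 without the 48 hr set, adjusted p = 0.611; also lost without the 48 hr control, 48 hr total KD or 96 hr control library). The main TPM1 last exon, farther downstream, took 67.4% to 81.8% of reads in the 14 libraries and was not called. Its differences after total KD were -9.64 and -3.74 points (n = 2 sets), and those of the nearer last exon were 7.88 and 8.18 points.

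The other tropomyosins gave no called exon in any knockdown contrast. In TPM2 the upstream exon 6 had 24.6% to 37.9% of the pair's reads in the 14 libraries, and the log2 odds ratios were 0.16 (SE 0.12) after total KD, -0.08 (SE 0.11) after N-short KD and 0.12 (SE 0.11) after N-long KD. The total KD difference in TPM2 was 2.83 ± 0.339 points (SD, n = 2 sets), against 14.1 ± 9.78 for the TPM1 pair. TPM3 took its upstream exon 6 in 99.8% to 100% of reads in all 19 libraries, so the pair was not tested. Its 79 nt exon near the 3′ end, the counterpart of the TPM1 exon, had a share of 0.608% to 1.34% in the 14 libraries and was also not tested.

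In ACTN1, total and N-long KD raised inclusion of the 81 nt exon against skipping. The skipping intron also passes over the smooth muscle exon of the pair, so its reads come from transcripts that lack both exons. Introns that end at the smooth muscle exon are not in this share, so it does not measure a swap between the exons. The share was 96.4%, 85.5% and 93.8% in the controls at 24, 48 and 96 hr and 99.4%, 96.0% and 97.7% after total KD. N-long KD gave 98.8% and 97.0% at 24 hr, 94.6% at 48 hr and 99.1% at 96 hr, and N-short KD 96.7%, 96.2%, 84.7% and 96.5%. The 48 hr control and N-short KD libraries were again the lowest. The log2 odds ratio was 1.9 after total KD (SE 0.34, adjusted p = 0.000161; 7.21 ± 4.65 points, n = 2 sets). It was 1.52 after N-long KD (SE 0.30, adjusted p = 0.0022; 5.00 ± 4.26 points, n = 3 sets), and N-long exceeded N-short KD by 1.41 (SE 0.29, adjusted p = 0.00516). Without the 48 hr set these became 1.67, 1.47 and 1.13 and none was called (adjusted p = 0.209, 0.209 and 0.976). Each was also lost without its 48 hr knockdown library (for the last, without either of these or the 96 hr N-long KD library).

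Against the 66 nt exon, the ACTN1 81 nt exon took 94.6%, 92.4% and 94.3% of the pair's reads in the controls and 98.6%, 97.8% and 98.3% after total KD. The 3 total KD libraries lay above all 11 others. The difference was 4.71 ± 1.02 points (SD, n = 2 sets; log2 odds ratio 1.96, SE 0.30, adjusted p = 0.000234), and 2.03 without the 48 hr set (adjusted p = 0.032). After N-long KD it was 1.08 (SE 0.25, adjusted p = 0.247). ACTN4 has a pair of the same 2 lengths, in which the 81 nt exon took 87.9% to 92.8% of reads in the 14 libraries. Its log2 odds ratio after total KD was 0.36 (SE 0.19, adjusted p = 1.0). The ACTN4 exon 8 pair, upstream of these, had log2 odds ratios of -0.15 (SE 0.12) after total KD, -0.03 (SE 0.11) after N-short KD and -0.29 (SE 0.11) after N-long KD, none of them called.

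MYH10 included its short cassette exon less after total and N-long KD. Inclusion of either form (27 or 30 nt) was 7.53%, 12.0% and 7.68% in the controls at 24, 48 and 96 hr, and 2.78%, 3.32% and 1.39% after total KD. N-long KD gave 3.55% and 3.46% at 24 hr, 3.71% at 48 hr and 3.15% at 96 hr, and N-short KD 5.08%, 5.68%, 12.3% and 6.39%. The total and N-long KD libraries did not overlap with the control and N-short KD libraries. For the 30 nt form the log2 odds ratio was -1.90 after total KD (SE 0.26, adjusted p = 5.06e-07; -6.84 ± 1.46 points, n = 2 sets) and -1.35 after N-long KD (SE 0.22, adjusted p = 6.45e-05; -4.99 ± 1.92 points, n = 3 sets). Both remained called without the 48 hr set (-1.82, adjusted p = 0.000283, and -1.22, adjusted p = 0.00855), but with limma the N-long KD call was lost (-1.34, adjusted p = 0.138). N-long lay below N-short KD (-1.08, adjusted p = 0.00162), a difference that was not called without the 48 hr set (-0.73, adjusted p = 0.808) or without either of its 48 hr libraries. The longer MYH10 insert of 63 nt, known from loop 2 of the motor domain, had 0 reads in 18 libraries, which allows a share of up to 0.334% to 3.33% by depth, and 1 read in the 48 hr total KD library.

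MYO18A included its 45 nt exon less after total KD. The share was 83.3%, 98.4% and 78.7% in the controls at 24, 48 and 96 hr and 45.5%, 51.7% and 58.3% after total KD. N-long KD gave 69.6% and 77.2% at 24 hr, 79.2% at 48 hr and 54.5% at 96 hr, and N-short KD 73.2%, 89.6%, 90.9% and 76.9%. Each total KD library lay below every control, and the 96 hr N-long KD library lay between the total KD values. The log2 odds ratio was -2.42 after total KD (SE 0.42, adjusted p = 8.58e-05; -33.5 ± 18.7 points, n = 2 sets) and -1.29 after N-long KD (SE 0.40, adjusted p = 0.272). Only 39 to 89 reads per library stood behind it, and without the 48 hr set it was -1.65 (adjusted p = 0.064). In MYL6, an essential light chain, none of the tested exons was called in a knockdown contrast, and the 144 nt exon had log2 odds ratios of 0.33 (SE 0.16), 0.20 (SE 0.14) and 0.13 (SE 0.14) after total, N-short and N-long KD. MYH9, whose only candidate cassette exon had too few reads, has no tested exon.

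In the authors' deposited table of total KD, positive differences mean a higher inclusion in the controls. The MYO18A exon differed there by 0.383 at 24 hr (adjusted p = 4.77e-05) and 0.466 at 48 hr (adjusted p = 5.72e-08) in the authors' deposited table. In the authors' deposited table the TPM1 upstream exon 6 differed by -0.109 at 24 hr and -0.189 at 48 hr. Events of the 10 genes with an adjusted p under 0.05 in the authors' deposited table of total KD numbered 7 of 114 at 24 hr (33 of 56004 over all genes), 7 of 92 at 48 hr (57 of 45644) and 1 of 94 at 96 hr (41 of 45414). The 1 event at 96 hr in the authors' deposited table was in MYH10, so no event of MYO18A or TPM1 passed at that time. For N-short KD the authors' deposited table gave 0 such events of the 10 genes at 24, 48 and 96 hr, where 7 of 56294, 2 of 45022 and 1 of 45826 events passed over all genes. For N-long KD the authors' deposited table also gave 0, where 6 of 57221, 13 of 45148 and 10 of 47333 passed over all genes, so few events passed for any gene.

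The amount of spliced RNA of the 10 genes was not called different in any knockdown contrast (edgeR 0 of 10, and DESeq2 0 of 10). Over all 13393 genes tested, 2.28% were called after total KD, 0.00747% after N-short KD, 0.0224% after N-long KD and 0.0149% between N-long and N-short KD. At an unadjusted p under 0.05 there were 2 of the 10 after total KD, 0 after N-short KD, 1 after N-long KD and 0 between the latter. The smallest adjusted p was that of MYH10 after total KD (log2 -0.09, adjusted p = 0.173). After N-long KD the smallest p was that of TPM1, with a log2 change of -0.08. The median log2 change of the 10 was -0.006 after total KD, against -0.0007 over all genes.

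**Figure D2:**
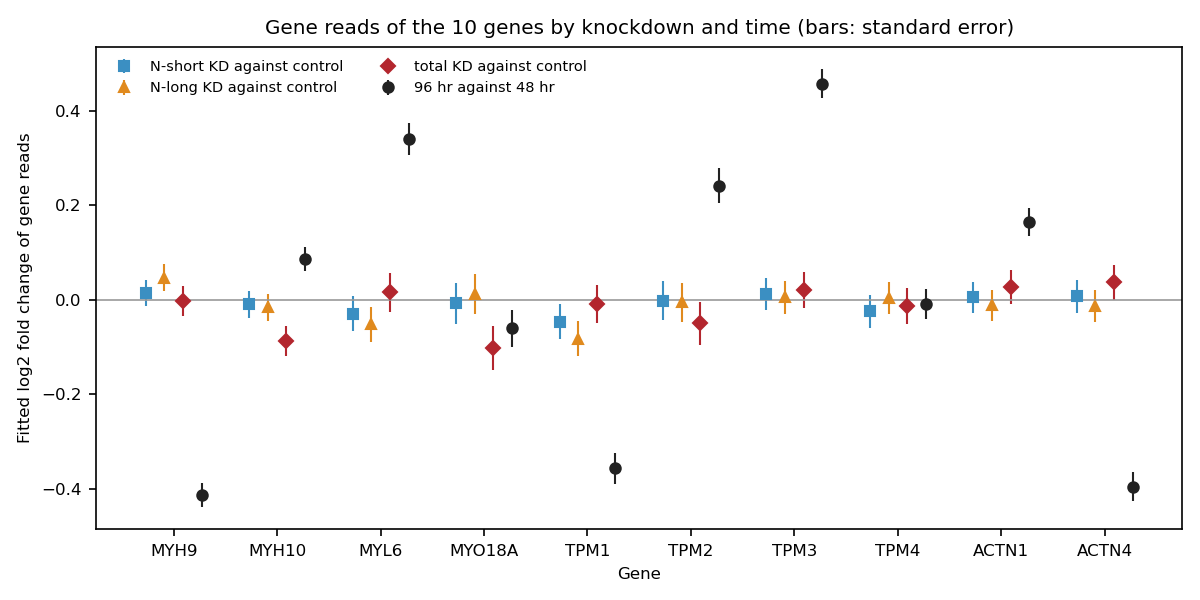
Fitted log2 fold change of gene reads (y axis) for each of the 10 genes (x axis) in 4 contrasts of the HUES66 libraries, with bars of 1 standard error. The knockdown contrasts lie close to 0, and the 96 hr against 48 hr contrast (black) runs from -0.41 for MYH9 to 0.46 for TPM3.

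Gene reads of most of the 10 genes differed between the 48 hr and 96 hr library sets. Between 96 hr and 48 hr, 8 of the 10 genes were called, 5 higher and 3 lower at 96 hr, where 59.6% of all genes were called. Each time is 1 set of libraries, so time cannot be told apart from differences between library preparations. MYH9 ranged over 1249 to 1272 CPM (here scaled by TMM factors) in the 4 libraries of 48 hr and 923 to 968 at 96 hr (log2 -0.41, SE 0.03, adjusted p = 1.04e-15), with no overlap. ACTN4 fell by 0.40 on the log2 scale and TPM1 by 0.36. TPM3 rose from 390 to 426 CPM to 552 to 584 CPM (log2 0.46, SE 0.03, adjusted p = 1.38e-14). MYL6 rose by 0.34, TPM2 by 0.24, ACTN1 by 0.16 and MYH10 by 0.09, on the same log2 scale. The MYH10 call was lost when both 24 hr sets shared 1 term (adjusted p = 0.079). MYO18A (-0.06) and TPM4 (-0.01) were not called. The median absolute log2 change of the 10 was 0.291, against 0.274 over all genes.

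Exon use also differed between these sets: 10 of 15 cassette exons were called (17.2% of all), 4 of 8 pairs (3.91% of all) and 4 of 10 ends (10.1% of all). These counts are not of independent events. The MYL6 forms of 36, 108 and 144 nt, all called, lie in 1 stretch. Of the pairs called, all but ACTN4 exon 8 were in TPM1, and its exon 4 and 5 pair shares an intron with the exon 6 pair. Exons 3 and 4 of TPM1 are annotated as a pair, but 7040 reads joined them in the treated libraries. The intron of the TPM1 internal first exon enters both that pair and the ends. The upstream exon 6 of TPM1 was 15.8 ± 7.38 points higher at 96 hr (SD, n = 4 libraries of each set; log2 odds ratio 1.50, adjusted p = 2.21e-11), and ACTN1 included the 81 nt exon more (1.69, adjusted p = 1.05e-06). The short MYH10 exon was lower at 96 hr (30 nt form -0.78, adjusted p = 0.00293), a call that was lost without the 48 hr N-short KD library (-0.54, adjusted p = 0.11). In ACTN4 the upstream exon 8 took 39.5%, 38.0%, 39.2% and 31.1% of the pair's reads at 48 hr in the control, total, N-short and N-long KD libraries. At 96 hr it took 48.8%, 48.5%, 48.9% and 42.5%, a rise in each of the 4 groups of 10.2 ± 0.925 points (log2 odds ratio 0.60, SE 0.10, adjusted p = 0.000199). The 144 nt exon of MYL6 fell from 96.4% to 97.0% at 48 hr to 93.8% to 95.8% at 96 hr (-0.64, adjusted p = 0.000241). MYO18A was lower by 12.9 ± 13.8 points at 96 hr, but rose in 1 of the 4 groups.

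First exons moved as well. TPM1 has an internal first exon, from which the short tropomyosins start. It took 1.38% to 2.51% of the reads at its shared acceptor at 48 hr and 3.29% to 7.86% at 96 hr (log2 odds ratio 1.38, SE 0.29, adjusted p = 0.000153), with 4.73% to 7.26% at 24 hr. Without the 96 hr N-short KD library, which had the 7.86%, it was 0.99 (adjusted p = 0.051). The farther first exon of ACTN1 rose from 91.8% to 94.1% at 48 hr to 96.2% to 97.5% at 96 hr (1.26, adjusted p = 0.000113). A downstream first exon of TPM4 fell from 2.05% to 4.11% to 0.388% to 1.87% (-1.48, SE 0.42, adjusted p = 0.0104), and was lost without any 1 of 3 libraries (the 48 hr control, 48 hr N-short KD or 96 hr total KD).

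Related genes, from lists fixed with earlier results of these data known, were read beside these. The shares of all genes called, against which the counts stand, were 2.28% after total KD and 59.6% between 96 hr and 48 hr. Of 14 tested regulators of myosin (light chains, kinases, phosphatase subunits and the GTPase RHOA), 1 was called after total KD (MYL12A, a regulatory light chain, log2 -0.20, adjusted p = 0.023). Between 96 hr and 48 hr 5 of the 14 were higher and 7 lower. Of 24 genes of cytoplasmic actins and actin-binding proteins, ANLN (anillin, of the cleavage furrow; -0.14, adjusted p = 0.035) and TLN2 (talin 2, of focal adhesions; -0.40, adjusted p = 1.4e-06) were lower after total KD. Between 96 hr and 48 hr 7 of the 24 were higher and 10 lower, among them CALD1 (caldesmon, which binds tropomyosin and actin) at -0.79. Of 13 tested relatives, most of them muscle genes, 0 were called in any knockdown contrast. Between 96 hr and 48 hr 8 were lower and 0 higher, a count called that is near the 59.6% of all genes. The 8 were ACTA2, ACTC1, ACTN2, ACTN3, CNN1, TAGLN, MYL6B and MYH14, and MYH14 codes for a nonmuscle heavy chain. The median log2 change of the 13 was -0.49, against -0.007 over all genes. In ACTN3, the fast muscle actinin, the log2 change was -2.18.

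Across cell lines, each with 1 library, gene reads differed by more than 2-fold in 4 of the 10 genes between A375 and HEK293 (38.1% of all genes), 4 between A375 and HUES66 (45.1% of all) and 3 between HEK293 and HUES66 (40.1% of all). There is no replicate, and the exact 95% intervals given cover counting error only. TPM2 differed most: 466 CPM in A375 total RNA, 245 in wild-type HUES66 and 30.2 in HEK293, which makes A375 15.4-fold higher than HEK293 (13.6 to 17.5). MYH9 was highest in HEK293, at 2513 CPM, 2.74-fold over A375 (2.67 to 2.81) and 2.59-fold over HUES66 (2.54 to 2.63). ACTN4 was highest in A375, at 1551 CPM, 2.68-fold over HEK293 (2.60 to 2.77) and 3.04-fold over HUES66 (2.97 to 3.12). MYH10 was 2.93-fold (2.82 to 3.04) and TPM1 2.74-fold (2.56 to 2.93) higher in HUES66 than in A375. MYO18A was 2.52-fold higher in A375 than in HEK293 and 2.18-fold higher than in HUES66. TPM3 was 2.12-fold higher in HUES66 than in HEK293. MYL6, TPM4 and ACTN1 stayed within 2-fold in each of these 3 comparisons.

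Scaled per intron (the median over the introns of 1 coding transcript, in CPM), MYL6 had the highest level of the 10 in the 14 HUES66 libraries, at 114 to 183. TPM3 (62.5 to 93.3) and TPM4 (73.3 to 91.9) followed and overlapped each other. TPM1 ranged over 35.8 to 55.6, and MYH10 (26.2 to 30.3), ACTN1 (24.1 to 29.6), MYH9 (22.6 to 33.3) and ACTN4 (20.2 to 31.4) overlapped. TPM2 had 15.5 to 24.1, which overlaps with ACTN4, MYH9 and, barely, ACTN1, and MYO18A the lowest level, 2.79 to 3.80.

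HUES66 shares lay outside the intervals of A375 total RNA and HEK293 for exons of genes that include ACTN4, MYL6, MYH10 and TPM1. With 1 library per line these intervals cover counting error only, and the percent of all exons that differ was not computed. The upstream exon 8 of ACTN4 took 99.2% of the pair's reads in A375 total RNA (95% Wilson interval 98.2 to 99.6), 96.9% in HEK293 (94.4 to 98.3) and 49.9% in wild-type HUES66 (46.2 to 53.5). The ACTN4 81 nt exon took 97.4% (95.7 to 98.4) in A375, 98.3% (95.8 to 99.3) in HEK293 and 89.7% (87.0 to 91.8) in HUES66. The 45 nt exon of MYL6 was included in 37.1% of reads in A375 (34.1 to 40.2), 33.5% in HEK293 (30.7 to 36.5) and 2.11% in HUES66 (1.74 to 2.55). In the 14 treated HUES66 libraries it stayed between 0.865% and 2.49%, from 1415 to 2523 reads each, and was too low to be tested. Inclusion of the short MYH10 exon (either form) was 7.42% in HUES66 (5.94 to 9.23), 0% in A375 total RNA (0 to 3.43) and 2.86% in HEK293 (1.39 to 5.78). A375 nuclear and cytoplasmic RNA gave 2.41% (0.663 to 8.37) and 4.32% (2.21 to 8.30), intervals that overlap with that of HUES66.

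**Figure D3:**
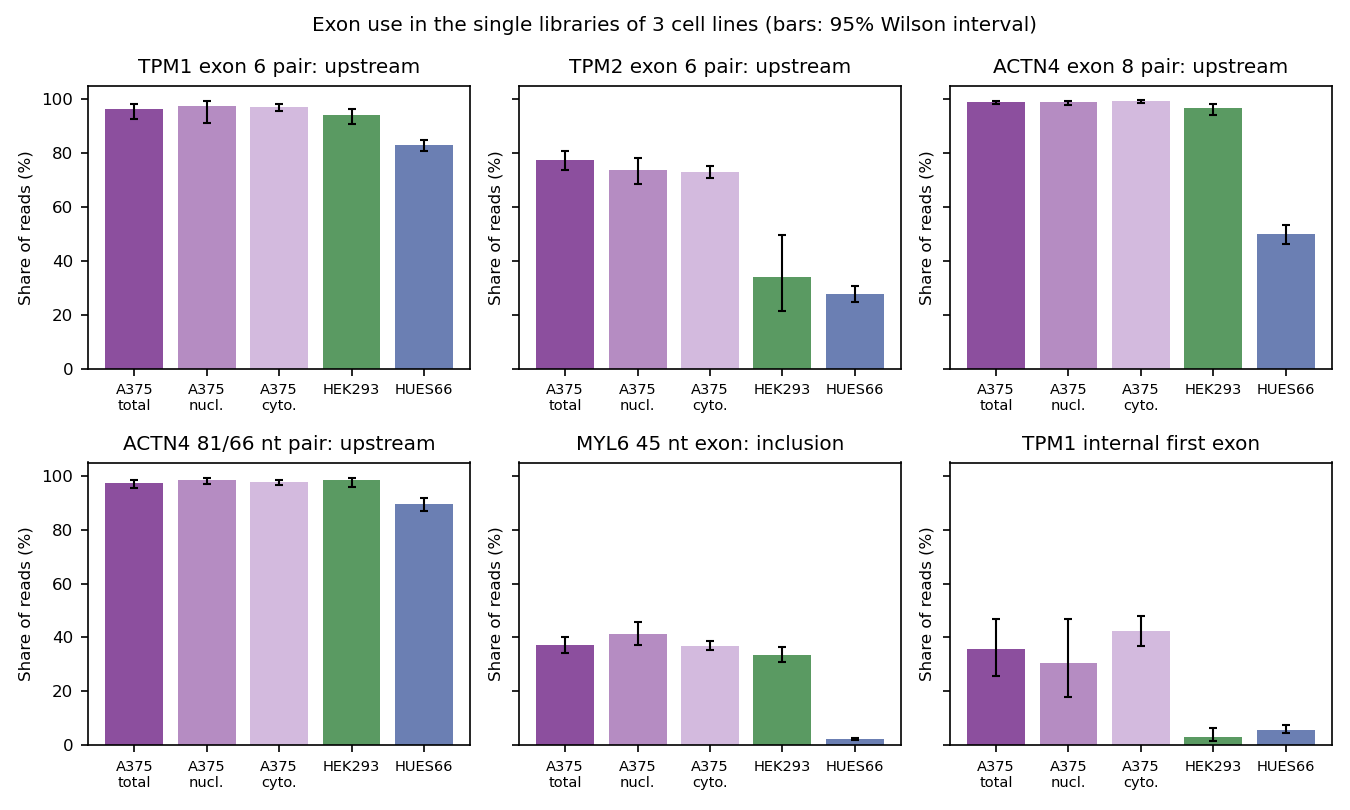
Share of reads (%, y axis from 0) of 6 alternative exons in the 5 single libraries (x axis), with 95% Wilson intervals. HUES66 is low for ACTN4 exon 8 (49.9%) and the MYL6 45 nt exon (2.11%), and A375 is high for TPM2 exon 6 (77.5% in total RNA) and the TPM1 internal first exon (35.5%).

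In the tropomyosins, A375 took the upstream exon 6 of TPM2 in 77.5% of reads (73.6 to 81), against 34.1% in HEK293 (21.6 to 49.5, from 41 reads) and 27.6% in HUES66 (24.7 to 30.6). The intervals of HEK293 and HUES66 overlap. The TPM1 upstream exon 6 took 96.5% (92.6 to 98.4), 94.2% (91.0 to 96.3) and 83.1% (81 to 84.9) in A375, HEK293 and HUES66. The TPM1 internal first exon took 35.5% in A375 (25.7 to 46.7), 2.90% in HEK293 (1.34 to 6.18) and 5.73% in HUES66 (4.31 to 7.58). For the ACTN1 81 nt exon the skipping intron, which passes over both exons of the pair, had 0 reads in A375 and HEK293. That allows up to 2.11% skipping in A375 total RNA and 1.84% in HEK293. Against the same intron, HUES66 included the 81 nt exon in 96.1% of reads. The MYO18A exon was included in 67.3% (57.7 to 75.7), 62.5% (45.3 to 77.1) and 80.7% (73.3 to 86.5) of reads in A375, HEK293 and HUES66.

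In A375 fractions, 1 library each, 3 of the 10 genes were past 2-fold between nuclear and cytoplasmic RNA, all 3 higher in the cytoplasm, where 41.9% of all genes were past 2-fold. The ratio of nuclear to cytoplasmic CPM was above 1 for both heavy chains, MYO18A and both actinins: 1.91 for MYH9 (1.85 to 1.97), 1.88 for MYH10, 1.73 for ACTN4, 1.68 for MYO18A and 1.46 for ACTN1. It was below 1 for the light chain and all 4 tropomyosins: 0.601 for TPM2, 0.524 for MYL6, 0.478 for TPM3, 0.471 for TPM1 and 0.452 for TPM4 (0.428 to 0.477). Each CPM is relative to its own fraction, so these ratios do not give the amounts per cell. In the exons listed here, shares differed little between nuclear and cytoplasmic RNA, given in that order. ACTN4 exon 8 was 99.1% and 99.3%, TPM2 exon 6 73.6% and 73.1%, and TPM1 exon 6 97.5% and 97.4%. The MYL6 45 nt exon was 41.3% (37.2 to 45.5) and 37.0% (35.4 to 38.5). The nuclear TPM1 share rests on 78 upstream and 2 downstream reads.

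**Figure D4:**
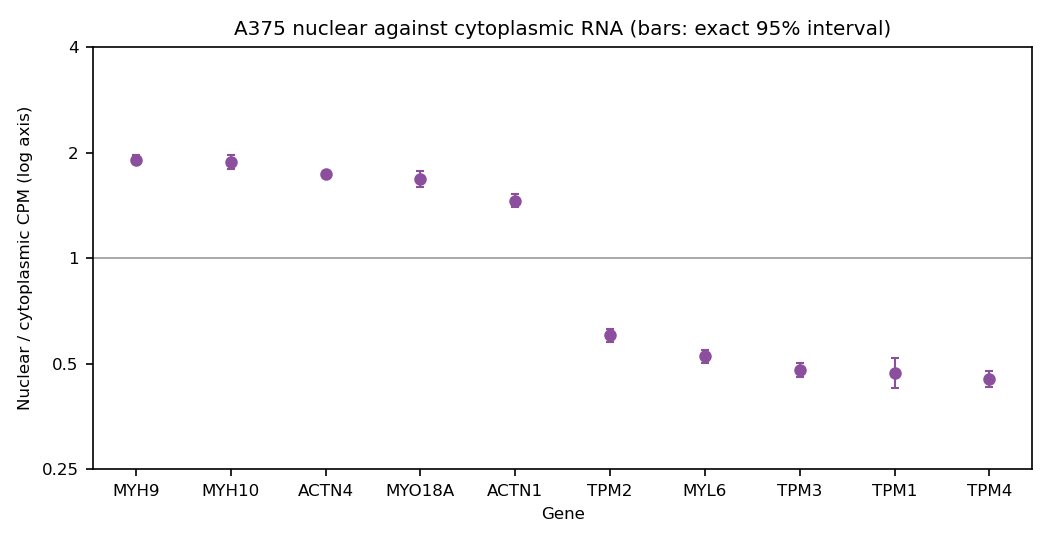
Ratio of nuclear to cytoplasmic CPM in A375 (log y axis) for each of the 10 genes (x axis), with exact 95% intervals. The 2 heavy chains, MYO18A and the actinins lie above 1 (1.46 to 1.91), and MYL6 and the tropomyosins lie below it (0.452 to 0.601).

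The levels most like those of MYH9 over the 19 libraries, among 8575 genes, were those of COCH (Pearson r 0.962), POLG (0.948) and ZKSCAN8 (0.943). For TPM1 they were FKBP1B (0.983), TMSB4X (0.98) and PTOV1 (0.978). Among the 10 genes, the r farthest from 0 was -0.876 for MYH9 (with TPM2) and -0.878 for TPM1 (with MYO18A), and TPM1 had an r of -0.816 with ACTN4 and 0.813 with TPM4. These values describe libraries in which 15 of the 19 come from 1 line, and no test was made.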

How the data were processed

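The deposited junction files hold raw counts of spliced reads per junction, 1 file per library, per the file headers. Per the submitters' processing notes, STAR 2.7.1, SAMtools 1.9 and hg38 were used, and libraries were ribosomal RNA-depleted, per the labels' protocols. The authors' deposited comparison tables give differences in exon inclusion on their own scale, with p-values and adjusted p-values, per the file headers. Their 69 per-library columns were not used here. The members and gene lists were chosen with earlier results of these data known.

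Introns were annotated with GENCODE 29. Reads on annotated introns of 1 gene were summed (93.4% to 94.8% of junction reads). Exon reads are the rounded mean of an exon's 2 introns. Exons up to 1000 nt, pairs and ends needed a mean of 20 reads per library and a pooled share of 2% to 98%. The 14 treated libraries were fitted by edgeR's quasi-likelihood test (edgeR 4.0.16, R 4.3.3, TMM factors for genes), with terms for library set and knockdown, over all features. The 24 hr total KD library, with no control in its set, entered only through that fit. Benjamini-Hochberg adjustment ran over all features of a contrast, and the threshold was 0.05. Nothing in the labels says that replicates are separate cultures, so p-values measure the spread between these libraries. Deviations of log2 CPM from the knockdown group means, without a set term, were correlated between libraries of different groups. Within sets the median r was 0.649 (0.410 to 0.819, 18 pairs), and across sets -0.215 (-0.737 to 0.575, 55 pairs). Centering on group means itself favours negative values across sets.

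Wild-type HUES66, whose description carries the name of the controls, entered only as an alternative, as a control of 24 hr replicate 1. The other alternatives were DESeq2 1.42.0, limma 3.58.1, other filters, time in place of set, leaving out each library, and leaving out the 48 hr set (chosen after the data were seen). Single libraries carry 95% Wilson or exact intervals, which cover counting error only, and a count of 0 was taken to allow 3 counts. Ratios of CPM added 0.5 reads and needed 20 reads in both libraries together. The genes named outside the 10 are members of the fixed lists that passed the threshold, RBFOX2, and the 3 genes whose levels correlate most with MYH9 and TPM1 among genes with a mean of 10 CPM. CALD1, ACTN3 and TAGLN were singled out after their values were seen. The tests were tried on simulated data first. Python 3.11.15 with numpy 2.4.6, pandas 2.3.3 and scipy 1.17.1 was used.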

Additional observations from a re-analysis of the deposited data

Results flagged for a closer look

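In 86 groups of 4 libraries (the share of a tested exon, pair or end, or the reads of 1 of the 10 genes, in N-short or N-long KD), 9 held 1 library whose gap to its nearest neighbour was, relative to the group's range, above Dixon's 95% critical value. Chance would flag about 1 in 20 groups of like libraries, but each group here mixes library sets and times, so that rate does not apply. Several of these exons share introns. The 48 hr N-short KD library was the one that stood apart in 7 of the 9. The 48 hr control, which is not in these groups, lay near it for the TPM1 exon 6 pair and the ACTN1 81 nt exon. A difference of the 48 hr set thus cannot be told apart from one of this library. For the ACTN1 81 nt exon its share was 84.7%, against 96.2% to 96.7% in the other N-short KD libraries (gap 0.958 of the range). For the TPM1 exon 6 pair it was 64.6%, against 85.1% to 87.2% (0.905), and for the same exons as cassettes the gaps were 0.912 (upstream) and 0.841 (downstream). For the TPM1 exon 4 and 5 pair the gap was 0.912. For the 27 nt form of the MYH10 exon the share was 7.17%, against 3.15% to 3.41% (0.935). That share includes reads of the intron that the 27 and 30 nt forms have in common. In the 48 hr N-short KD library 9 reads used the 27 nt form's own intron and 53 that of the 30 nt form. For the nearer first exon of ACTN1 the share of this library was 5.93%, against 1.93% to 2.53% (0.851). The 48 hr N-long KD library stood apart in the same way, at 5.05% against 1.83% to 2.30% (0.854). The 96 hr N-long KD library had the lowest share of the farther last exon of TPM1, 67.7% against 75.7% to 77.3% (0.838). Of 42 called event contrasts, 3 had library groups that moved in both directions, all between 96 hr and 48 hr: the 74 nt exon of MYH10, the 45 nt exon of MYO18A and the nearer first exon of ACTN1.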

How the results depend on the processing

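No result changed direction under any alternative. With limma, cassette exons called were 4 after total KD, 0 after N-long KD and 0 between N-long and N-short KD, pairs 0 and 0 in the latter contrasts, and ends 0 after total KD. Without the 48 hr set (chosen after the data were seen) cassette exons called were 4, 1 and 0 in the same order, pairs 0 after N-long KD and 0 between N-long and N-short KD, and ends 0 after total KD. With no replicate block, so that both 24 hr replicates shared 1 term, 3 cassette exons and 0 pairs were called between N-long and N-short KD. With wild-type HUES66 as a control, 3 pairs were called after N-long KD. Leaving out each library in turn gave 5 to 8 cassette exons after total KD, 1 to 6 after N-long KD, 0 to 5 between N-long and N-short KD and 6 to 10 between 96 hr and 48 hr. Pairs ranged over 0 to 1, 0 to 1 and 3 to 4 in the last 3 of these contrasts, and ends over 0 to 1 after total KD and 2 to 6 between 96 hr and 48 hr. The cause was not tested. Of 700 values with 1 library left out, 642 kept their side of the threshold and 58 lost the call. With limma, 20 of the 42 called event contrasts lost the call, and without the 48 hr set 16 of the 24 knockdown calls did. Of 124 shares in single libraries, 48 moved beyond their counting interval when the intron with fewer reads stood for the exon. A MYO18A share rests on 39 to 89 reads, which limits its precision.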
